A study of Mus musculus with 17 samples.

Results

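Cytosolic ribosomal proteins are the protein building blocks of the ribosome that translates mRNA in the cytoplasm. Their genes were found by symbol: every gene of the tables whose name starts with Rpl or Rps followed by a digit or by the letters a, p or x, without pseudogenes marked as such and without the kinases named Rps6k. This rule gave 86 genes of 21848, with 52 genes of the large (60S) subunit and 34 of the small (40S) subunit. The rule used names only and no measured value. It left out genes that encode ribosomal proteins under other names, of which *Fau* and *Rack1* are given separately. *Rps19bp1* was also left out, since it is not a ribosomal protein.

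The data were UMI counts (unique molecular identifiers, 1 per captured mRNA molecule) from 5′ single-cell libraries of germinal centre (GC) B cells from mouse lymph node. All groups came from hosts that received B1-8hi B cells, which bind the hapten NP, and were then immunized with NP coupled to ovalbumin (NP-OVA). The study describes wild-type hosts that were primed with ovalbumin in alum some weeks before the transfer. The transferred cells were a mixture. In the anti-DEC-OVA model as the study describes it, only a minority carried the receptor DEC-205, with an mCherry reporter of cell division, and the others were *Ly75*-/-. In its reporter experiments the minority carried DHB-tdTomato. Anti-DEC-OVA, an antibody that brings ovalbumin to cells with DEC-205, was given at 7 days after immunization. In the time course, mice were taken on day 7 (0 h, before treatment; 9 mice), on day 9 (48 h; 6 untreated and 9 treated mice) and on day 10 (72 h; 8 untreated and 7 treated mice). The mice came from 2 experiments, called the larger (25 mice) and the smaller (14 mice), and each experiment was 1 pool of cells. The study describes the time-course cells whose mutations it counted, treated and untreated, as DEC-205+ GC B cells. It profiled gene expression in the cells of that same analysis. A further set came from 7 mice of a reporter sort, where the labels give only the letters C and N. These were read as cytoplasmic (CDK2hi) and nuclear (CDK2low) DHB-tdTomato, a CDK2 sensor expressed from the *Rosa26* locus, at 72 h after anti-DEC-OVA. C and N were separate pools, so the population and the library cannot be told apart. The mouse was the replicate throughout.

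A ribosome holds a single copy of nearly every one of these proteins, the exception being the acidic stalk proteins, and cells make the proteins of both subunits in matched amounts. Many of their mRNAs start with a terminal oligopyrimidine (TOP) tract, a C followed by a run of C and T, through which mTORC1 signalling acts on their translation. Proliferating lymphocytes build many ribosomes, and in GC B cells Myc and mTORC1 are switched on in cells selected by T cells before these divide. The ribosomal protein mRNAs themselves are among the most abundant in a B cell, and the levels below are levels of mRNA, not of protein or of ribosomes.

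The start of the mRNA is shown for 8 genes that the results turn on, with 15 bases before and 15 bases from the annotated start site of the Ensembl canonical transcript in GENCODE vM39 (GRCm39). Capitals mark a C followed by at least 4 bases that are each C or T, searched on the transcribed strand only, from the C that lies nearest to the start and no more than 5 bases from it. Bases C or T that come before this C are left in lower case, as in *Rps2* and *Rpl22*, so the capitals need not hold the whole pyrimidine stretch of the genome. The first is *Rps2*, the gene with the largest rise at 48 h, where this C is the annotated first base (chr17:24939067-24939096, plus strand). The next are the paralog pair *Rpl22* (chr4:152410135-152410164, plus) and *Rpl22l1* (chr3:28859570-28859599, plus), then *Rps27l* (chr9:66853325-66853354, plus) and *Rpl36* (chr17:56920340-56920369, plus), which fell at 72 h. The last are *Rpl14* (chr9:120400474-120400503, plus), *Rplp1* (chr9:61821858-61821887, minus) and *Rpl41* (chr10:128385008-128385037, minus), which rose at 48 h and were higher in C. No run was found in these last genes or in *Rpl22l1*.
Rps2: ttccgcggcgcctccCTCTTCTTCTTCTTC
Rpl22: cccgtctgactcctcCCTTTCCCgacagcc
Rpl22l1: catatccggttccgagttgcgtatttcgca
Rps27l: gagcggtcgcccccgCCTCCactcctctcc
Rpl36: gcccgcagcgcgcctgtCTCTCTagccgga
Rpl14: agcatgcgtaaaagcacgcacgtttccccg
Rplp1: cgtctcgagtcgggcatcgattggtcggcg
Rpl41: ggaagtgacgacaccgagcacgccattaaa
A run was found in 23 of 86 ribosomal protein genes (26.7%) and in 4126 of 21616 protein-coding genes (19.1%). Such a C exactly at the annotated first base was found in 8 of 86 (9.30%) and in 788 of 21616 (3.65%). Annotated starts can lie some bases from the start that a cell uses, so a window without a run, such as that of *Rpl22l1*, says only that these letters are absent from it.

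*Rps27* and *Rps27rt* are shown for another reason, which is that reads from the stretch they share cannot be told apart. *Rps27* lies on chromosome 3 and *Rps27rt*, a copy of it, on chromosome 9. The window from the start of *Rps27rt* (chr9:114811778-114811807, minus strand) occurs unchanged in the *Rps27* transcript from its base 24 (chr3:90120925-90120954, minus strand), with the run in capitals. In *Rps27* these capitals thus lie inside the transcript, and no run was found at its own annotated start.
Rps27: CTTTCCggcggtgacgacctccctacgaga
Rps27rt: CTTTCCggcggtgacgacctccctacgaga
Their transcripts of 523 and 374 bases shared a stretch of 345 identical bases, and 350 of the 374 aligned bases matched (93.6%). The mice of the larger experiment held 19.5 to 21.8 *Rps27rt* UMIs per 100 *Rps27* UMIs, against 2.91 to 4.34 in the smaller experiment, 4.25 to 4.78 in C and 4.79 to 5.44 in N. The 2 genes thus cannot be counted apart with certainty, and their sum is given below. The other pairs compared shared far less. The longest shared stretch was 11 bases for *Rps27* and *Rps27l*, 26 for *Rpl22* and *Rpl22l1*, 24 for *Rpl36a* and *Rpl36al*, 22 for *Rpl3* and *Rpl3l*, and 10 for *Rpl7* and *Rpl7l1*.

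After filters 13625 and 10073 cells remained in the larger and the smaller experiment, and 7588 and 4499 in C and N. A mouse held between 1984426 and 13373185 UMIs in the time course and between 4039038 and 21358997 in C and N. The pools shared between 5 and 43 cell barcodes, at most 0.427% of the smaller pool. Markers of GC B cells (8 of 8 detected in every group) summed to between 1961 and 2501 CPM (UMIs of a gene per 1e6 UMIs of the mouse) in the time course. Markers of naive or memory B cells were lower with treatment at 48 h, at 148 to 211 CPM against 366 to 453 in untreated mice of the larger experiment and 107 to 131 against 264 to 299 in the smaller. T cell markers summed to at most 106 CPM in the time course. The study's gate for GC B cells took B220+ Fas+ cells without CD38 or TCRb, which would remove T cells and most naive and memory B cells. The share of kept cells with the heavy- and light-chain pairing of B1-8hi was 70.5% to 77.7% with treatment against 62.3% to 67.4% without at 48 h in the larger experiment, and 53.1% to 58.0% against 34.7% to 38.8% in the smaller. In all other cells the origin from transferred cells was not shown.

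The share of all UMIs that came from ribosomal protein genes differed between groups by time and treatment and also between the experiments. All UMIs here are those of the gene tables used. These tables hold almost no immunoglobulin genes, so the mRNA of such genes, abundant in B cells, is nearly absent from this total. In the larger experiment it was 19.57% to 21.51% (median 20.44%) at 0 h, 20.70% to 21.66% in untreated and 21.16% to 21.90% (median 21.58%) in treated mice at 48 h, and 20.29% to 21.30% in untreated and 19.12% to 19.79% in treated mice at 72 h. In the smaller experiment it was 16.97% to 17.69% at 0 h, 18.36% and 18.37% in the 2 untreated and 19.88% to 20.21% in the 3 treated mice at 48 h, and 18.52% to 19.21% in untreated and 16.89% to 17.96% in treated mice at 72 h. Treated mice thus stood above untreated ones at 48 h in the smaller experiment and overlapped with them in the larger, and stood below untreated ones without overlap at 72 h in both. With the experiment taken into account, treated minus untreated mice gave 0.768 percentage points at 48 h and -1.32 at 72 h, beside a residual SD between mice of 0.510 percentage points. The 48 h difference was 0.312 in the larger and 1.68 percentage points in the smaller experiment, while the 72 h difference was -1.43 and -1.20. With every cell weighted equally, by the mean over cells of each cell's own share, the 48 h difference was larger, at 1.18 percentage points (0.598 in the larger and 2.35 in the smaller experiment). The 72 h difference was then -1.28 (-1.46 and -1.04), and treated and untreated mice of the smaller experiment overlapped, at 15.1% to 16.5% and 16.1% to 17.9%. Treated mice lost 2.21 percentage points from 48 h to 72 h, 2.13 in the larger and 2.48 in the smaller experiment, with no overlap in either. Untreated mice at 72 h were 0.698 percentage points above 0 h, with overlap in the larger experiment (0.349) and none in the smaller (1.37).

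**Figure D1:**
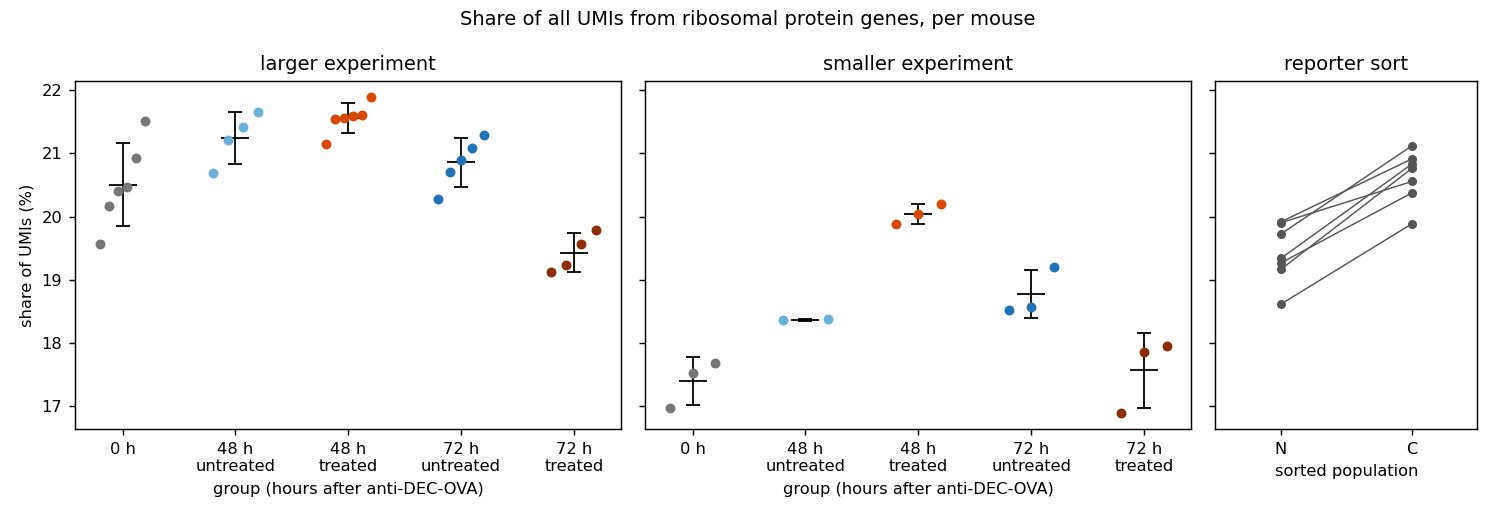
Share of all UMIs from the 86 ribosomal protein genes (y axis, percent; the axis does not start at 0) by group in both experiments of the time course and in the reporter sort. Points are mice, black bars the mean and SD, and lines join the N and C cells of a mouse. Treated mice at 72 h sit below untreated mice at 72 h in both experiments, and C lies above N in 7 of 7 mice.

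In C cells the share was 19.9% to 21.1% and in N cells 18.6% to 19.9%. C was above N in 7 of 7 mice, by 1.22 percentage points on average (SD 0.325), with the difference of single mice between 0.654 and 1.60. Weighting every cell equally gave a smaller difference of 0.682 percentage points. Mitochondrial UMIs were 3.04% to 3.39% in C and 3.42% to 3.86% in N, without overlap, and their part in the result was not tested.

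A share says how the UMIs of a cell are divided, not how many there are, and these went differently. At 48 h treated mice of the larger experiment held 3262 to 3591 ribosomal protein UMIs per cell and untreated mice 1738 to 2202, a ratio of means of 1.80. In the smaller experiment the values were 2545 to 2925 and 1346 to 1387, a ratio of 1.99. All UMIs per cell rose almost as much, with ratios of 1.78 and 1.82. At 72 h the ribosomal protein UMIs per cell overlapped between treated and untreated mice, with ratios of 0.990 and 0.999. C cells, which had the larger share, held fewer ribosomal protein UMIs per cell (1972 to 2474) than N cells (2209 to 2901), a ratio of 0.873, and fewer UMIs in all, a ratio of 0.823. UMIs per cell depend on the RNA content of a cell and on the depth and capture of its library, which cannot be told apart between the C and N pools.

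**Figure D2:**
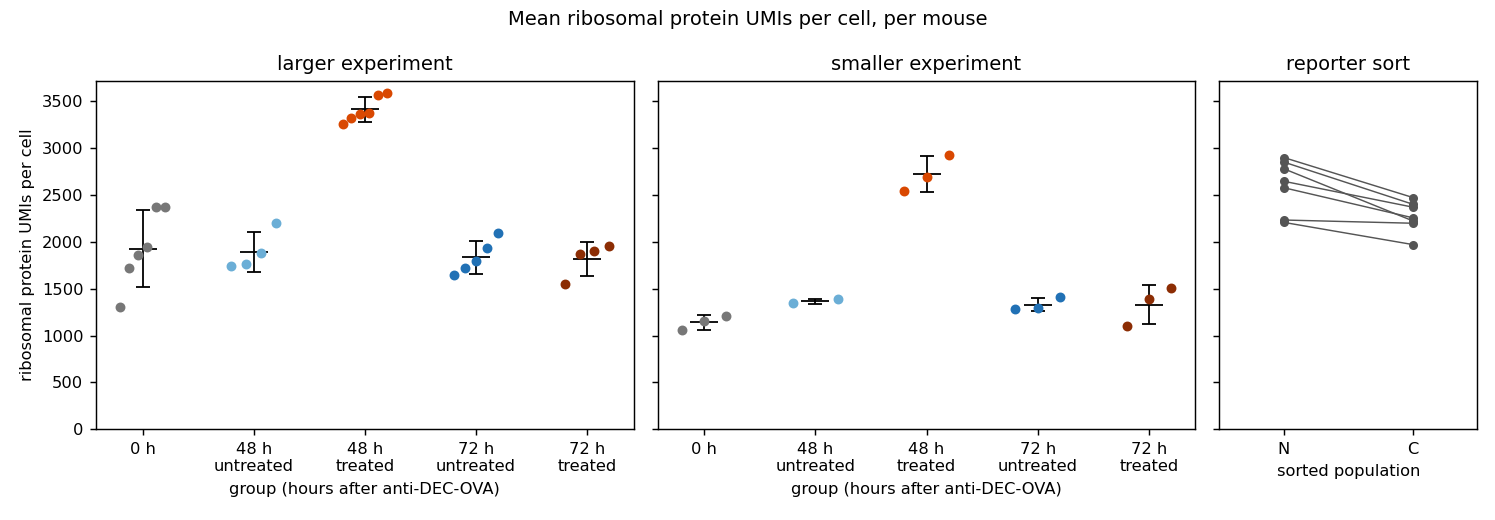
Mean number of ribosomal protein UMIs per cell (y axis, from 0) for each mouse, by group in both experiments and in the reporter sort. Points are mice, black bars the mean and SD, and lines join N and C of a mouse. Treated mice at 48 h stand above all other groups of their experiment, at 3262 to 3591 in the larger and 2545 to 2925 in the smaller.

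For single genes, the summed UMIs of each mouse entered a quasi-likelihood test of edgeR, with a term for the experiment and Benjamini-Hochberg adjustment over all genes. Of the 86 genes, 82 passed the filter on low counts in the time course, among 10220 genes. The other 4 were paralogs with 90 (*Rpl39l*), 7 (*Rpl3l*), 1 (*Rps23rg1*) and 0 (*Rpl10l*) UMIs in all, and 0 UMIs allow up to 3 at a confidence of 95%, for counting error only. A log2 fold change below is fitted with TMM (trimmed mean of M values) library factors, so it is relative to the bulk of genes and can differ from the ratio of CPM.

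At 48 h, 60 of 82 ribosomal protein genes were higher in treated than in untreated mice and 2 were lower. Among all genes, 26.3% were higher and 21.1% lower. The median log2 fold change was 0.13, against 0.01 over all genes, and the values ran from -0.17 to 0.47. The rises were thus small for most genes, and 76 of 82 values lay above 0. Of the 60S genes 40 of 49 rose and 0 fell, with a median of 0.14. Of the 40S genes 20 of 33 rose and 2 fell, with a median of 0.11. The split between rises and falls depended on the scaling: with library sizes alone, without TMM factors, which moved the median of all genes to -0.06, 35 rose and 8 fell (all genes: 18.5% and 30.1%). Without the term for the experiment 16 rose and 0 fell (all genes: 15.5% and 10.8%). The median of the ribosomal protein genes lay 0.11 above that of all genes with TMM factors and 0.12 above it without. This excess was smaller in cells with the B1-8hi pairing (0.07), where 30 rose and 6 fell (all genes: 16.8% and 17.7%). It was 0.06 in the larger experiment alone, where 24 rose and 6 fell (all genes: 18.2% and 19.7%). In the smaller alone it was 0.21, and 56 rose and 0 fell (all genes: 10.7% and 10.1%). Naive or memory B cell markers (5 of 7 tested) and T cell markers (4 of 4 tested) were lower with treatment at 48 h. T cell markers summed to 54.8 to 65.6 CPM in treated against 67.6 to 106 in untreated mice of the larger experiment, and to 47.3 to 54.3 against 77.4 to 78.9 in the smaller. Of the GC B cell markers 2 were higher and 4 lower of 8. Mitochondrial UMIs were 2.18% to 2.32% against 2.33% to 2.42% in the larger experiment, and 3.85% to 4.19% against 4.35% to 4.41% in the smaller. The share of cells in G1 was 17.4% to 24.2% against 52.6% to 56.9% in the larger experiment. The part of these cells and phases in the result was not tested beyond the fits within B1-8hi cells and within a phase.

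The largest rise was in *Rps2*, a 40S protein near the channel where the mRNA enters. Untreated mice at 48 h had 2799, 2891, 3063 and 3452 CPM in the larger experiment and 2677 and 2810 in the smaller. Treated mice had 3730 to 4125 CPM (median 3919, n = 6) in the larger and 3696, 3709 and 3967 in the smaller experiment. Every treated mouse was above every untreated one, and the log2 fold change was 0.47 ± 0.072 (SE; edgeR adjusted p = 1.14e-06). *Rps27l*, a paralog of *Rps27* that p53 is known to induce, rose from 246 to 313 CPM in untreated to 336 to 364 in treated mice of the larger experiment, and from 279 and 312 to between 351 and 390 in the smaller. Its groups did not overlap in either experiment, and the log2 fold change was 0.42 ± 0.064 (edgeR adjusted p = 1.02e-06). *Rpl14*, a 60S protein, rose from 1639 to 1886 CPM to between 2071 and 2159 in the larger and from 1667 and 1763 to between 2144 and 2276 in the smaller experiment. This was a log2 fold change of 0.39 ± 0.053 (edgeR adjusted p = 1.5e-07), again with no overlap. *Rpl22l1*, the paralog of the RNA-binding 60S protein *Rpl22*, rose from 604 to 650 CPM to between 719 and 793 in the larger and from 681 and 698 to between 862 and 909 in the smaller experiment. Its log2 fold change was 0.36 ± 0.048 (edgeR adjusted p = 9.3e-08) beside 0.12 ± 0.033 for *Rpl22* (edgeR adjusted p = 0.00233). *Rps2*, *Rps27l*, *Rpl14* and *Rpl22l1* were named for the highest fold changes among the calls. A lack of overlap between their groups is therefore not separate evidence.

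Genes of known functional sites mostly rose at 48 h as well. The 3 proteins of the stalk that recruits elongation factors, *Rplp0*, *Rplp1* and *Rplp2*, rose by 0.29, 0.25 and 0.13. *Rpl5* and *Rpl11*, which join the 5S rRNA to the large subunit and can bind Mdm2, rose by 0.16 and 0.17. *Rpl3*, which reaches to the peptidyl transferase centre, rose by 0.30, and *Rpl10*, added late in the maturation of the large subunit, by 0.19. *Rps6*, the substrate of S6 kinase, and *Rpsa* each rose by 0.17, and *Rps3*, at the mRNA entry channel, by 0.11. *Rps19*, a gene mutated in Diamond-Blackfan anaemia, had a log2 fold change of 0.07 that did not pass (edgeR adjusted p = 0.092). *Rpl41*, the smallest ribosomal protein, rose by 0.17. Of 7 genes around the tunnel exit 6 rose, and of 13 genes of the 40S head 8 rose, with 0 falls in both lists, beside 60 of 82 over all ribosomal protein genes tested and 26.3% of all genes. The smallest rises that passed were those of *Rps16* (0.07, edgeR adjusted p = 0.0418) and *Rps9* (0.08, edgeR adjusted p = 0.0356), and both turned below 0 in the larger experiment alone, at -0.01 and -0.02.

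The 2 genes that fell were *Rps27* and *Rps27rt*, of which the shorter *Rps27rt* matches *Rps27* over nearly its whole length. *Rps27*, a zinc-finger protein of the 40S subunit, was at 1475 to 1621 CPM in untreated and 1256 to 1365 in treated mice of the larger experiment, and at 1701 and 1779 against 1614 to 1631 in the smaller. Its log2 fold change was -0.13 ± 0.037 (edgeR adjusted p = 0.00325). *Rps27rt* was at 303 to 330 against 260 to 281 CPM in the larger and at 65.6 and 65.8 against 54.9 to 57.8 in the smaller experiment, a log2 fold change of -0.17 ± 0.044 (edgeR adjusted p = 0.00162). The sum of both genes was 1777 to 1948 CPM in untreated and 1516 to 1644 in treated mice of the larger experiment, and 1767 and 1845 against 1669 to 1686 in the smaller, so treated mice were lower without overlap however the UMIs were divided between the genes. *Rps27* and its paralog *Rps27l* therefore changed in opposite directions at 48 h, while *Rpl36a* and *Rpl36al* both rose, by 0.31 and 0.16, as did *Rpl7* and *Rpl7l1*, by 0.13 and 0.16.

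**Figure D3:**
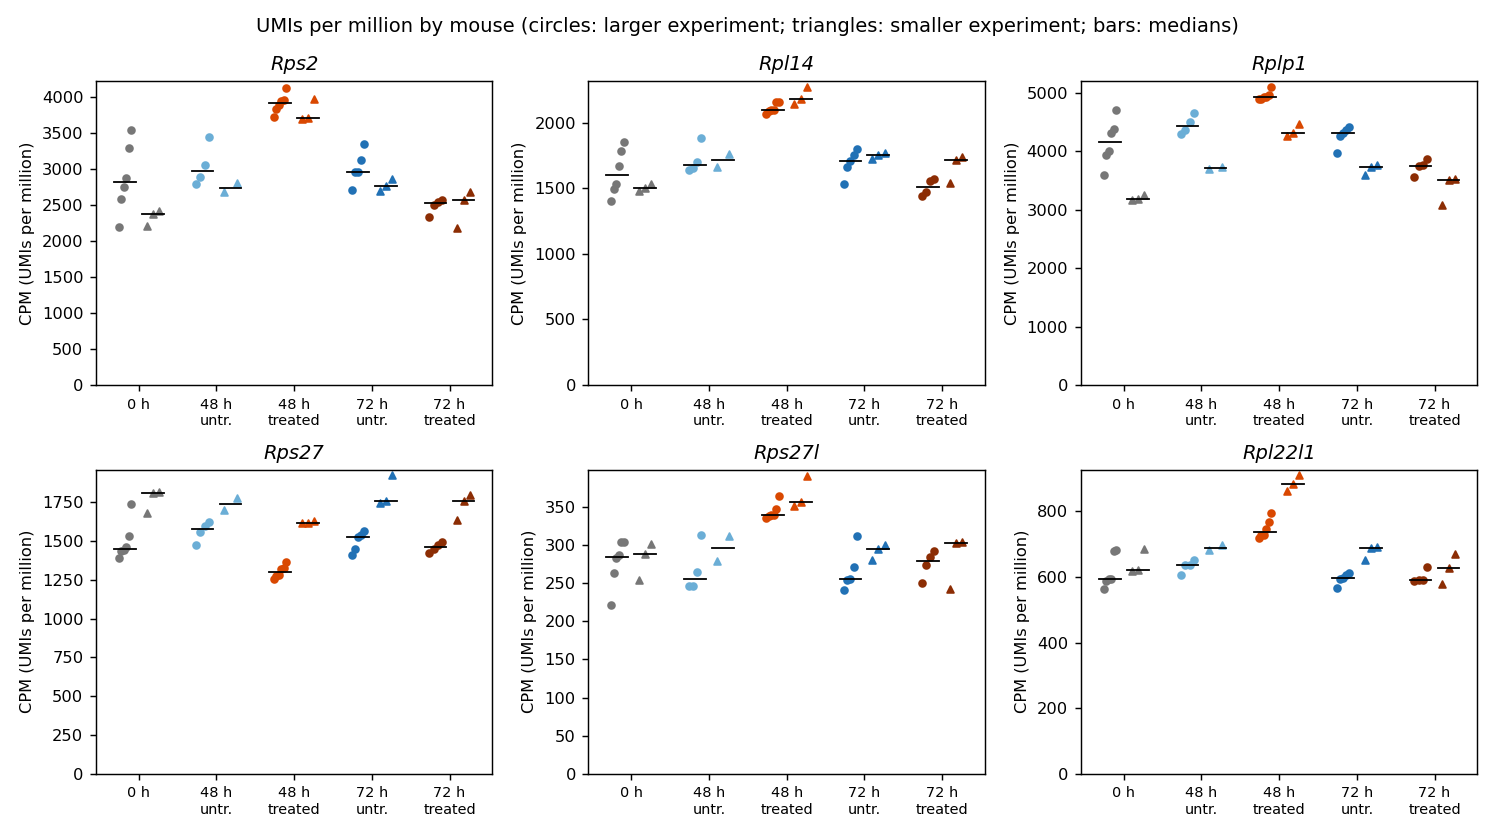
CPM (y axis, from 0) of 6 ribosomal protein genes by group. Circles are mice of the larger and triangles mice of the smaller experiment, and bars are medians. For Rps2, Rpl14, Rplp1, Rps27l and Rpl22l1 the treated mice at 48 h lie above the untreated ones of the same experiment, and for Rps27 below them.

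At 72 h the direction was the opposite. Compared with untreated mice of the same day, 0 of 82 ribosomal protein genes were higher and 39 were lower, among all genes 4.67% and 3.88%. The median log2 fold change was -0.10 (all genes: -0.0044), with a range of -0.23 to 0.03, and 80 of 82 values lay below 0. Falls passed the test in 29 of 49 genes of the 60S and 10 of 33 of the 40S subunit. In the larger experiment alone 22 fell (all genes: 3.55%), and in the smaller alone 0 fell, where only 22 of 10334 genes of any kind passed. The median there was -0.12. With only cells of the B1-8hi pairing 51 fell (all genes: 2.99%). Without the term for the experiment 2 fell (all genes: 1.07%), and with only G1 cells 1 rose and 19 fell (all genes: 3.69% and 4.80%). Naive or memory B cell markers were lower at 72 h too (5 of 7 tested), at 263 to 345 CPM in treated against 361 to 494 in untreated mice of the larger experiment, with overlap in the smaller. Myeloid markers summed to 251 to 283 CPM in treated against 158 to 207 in untreated mice of the larger experiment, with overlap in the smaller, and 1 of 2 tested was higher. Of 5 plasma cell markers 1 was lower, with a median log2 fold change of -0.67. GC B cell markers (2 higher and 1 lower of 8) summed to 2362 to 2394 CPM in treated against 2210 to 2354 in untreated mice of the larger experiment. In the smaller they summed to 2295 to 2501 against 2224 to 2294. The ranges did not overlap but nearly touched, at 2361.67 against 2354.19 CPM in the larger and 2294.52 against 2294.33 in the smaller. T cell markers (0 of 4 passed) summed to 76.7 to 92.8 against 77.5 to 101 CPM in the larger, with overlap, and to 67.8 to 80.5 against 91.7 to 95.2 in the smaller, without overlap. The part of these markers in the result was not tested.

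*Rps2*, the gene with the largest rise at 48 h, also had the largest fall at 72 h. Untreated mice had 2713 to 3344 CPM (median 2965) in the larger and 2691, 2764 and 2856 in the smaller experiment, while treated mice had 2330, 2497, 2547 and 2570 in the larger and 2181, 2576 and 2675 in the smaller. The groups did not overlap, and the log2 fold change was -0.23 ± 0.07 (edgeR adjusted p = 0.028). *Rpl36*, a 60S protein, went from 1256 to 1437 CPM in untreated to between 1129 and 1206 in treated mice of the larger experiment, and from 1543 to 1606 to between 1338 and 1446 in the smaller. It fell by 0.22 ± 0.042 on the log2 scale (edgeR adjusted p = 0.000432). *Rpl12*, a protein at the base of the stalk, fell by 0.20 ± 0.035 (edgeR adjusted p = 0.000126), from between 2170 and 2425 to between 1954 and 2049 CPM in the larger and from between 1774 and 1841 to between 1526 and 1645 in the smaller experiment. *Rpl41* fell by 0.20 ± 0.035 (edgeR adjusted p = 0.000146), from between 4001 and 4231 to between 3527 and 3575 CPM and from between 4212 and 4439 to between 3700 and 4068. None of these 4 genes overlapped between treated and untreated mice of an experiment. They were named for the 4 lowest fold changes among the calls, so this separation is not separate evidence. The share of all genes without overlap is not given. Falls also passed for *Rplp1* (-0.17), *Rpl39* (-0.17), *Rpl36a* (-0.16), *Rpl10* (-0.15), *Rpl3* (-0.14), *Rps29* (-0.14), *Rps7* (-0.12) and *Rpl11* (-0.12). The smallest falls that passed were those of *Rpl30*, *Rpl24*, *Rpl21* and *Rpl23*, at -0.11 to -0.09. *Rpl14* had -0.13 ± 0.052 and did not pass (edgeR adjusted p = 0.124), nor did the paralogs *Rps27l* (0.01) and *Rpl22l1* (-0.04), *Rplp0* (-0.04) or *Rps27* (-0.05).

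Treated mice of 48 h and 72 h were compared directly as well. These are the same treated mice as in the comparisons above, so the values are not separate evidence. Of 82 genes 80 were higher at 48 h and 1 was lower (all genes: 26.8% and 22.3%), with a median log2 fold change of 0.26 against 0.01 over all genes. All 49 tested genes of the 60S subunit were higher at 48 h. The largest differences were in *Rps2* (0.73 ± 0.069), *Rpl14* (0.54 ± 0.051), *Rpl22l1* (0.48 ± 0.046) and *Rpl36a* (0.48 ± 0.041), each with an edgeR adjusted p of 1.44e-10 or less. *Rps2* thus went from 3730 to 4125 CPM at 48 h to between 2330 and 2570 at 72 h in the larger experiment. The gene that was lower at 48 h was *Rps27rt* (-0.12, edgeR adjusted p = 0.0244), and *Rps27* did not pass (-0.04, edgeR adjusted p = 0.377). The sum of both genes was 1516 to 1644 CPM at 48 h and 1722 to 1799 at 72 h in the larger experiment, and 1669 to 1686 and 1705 to 1865 in the smaller, so that it was lower at 48 h without overlap. The smallest rise that passed was that of *Rpl21* (0.08). Without TMM factors 63 were higher and 2 lower (all genes: 17.9% and 34.4%). Of 5 plasma cell markers 3 were higher at 48 h (median 0.52), and of 8 GC B cell markers 1 was higher and 6 lower (median -0.18). Naive or memory B cell markers summed to 148 to 211 CPM at 48 h and 263 to 345 at 72 h in the larger experiment, and to 107 to 131 and 208 to 288 in the smaller. T cell markers summed to 54.8 to 65.6 and 76.7 to 92.8 CPM in the larger, and to 47.3 to 54.3 and 67.8 to 80.5 in the smaller. Mitochondrial UMIs were 2.18% to 2.32% at 48 h and 2.34% to 2.59% at 72 h in the larger, and 3.85% to 4.19% and 4.47% to 4.98% in the smaller experiment. The share of cells in G1 was 17.4% to 24.2% at 48 h and 49.6% to 56.8% at 72 h in the larger, and 17.4% to 21.3% and 38.1% to 48.9% in the smaller. All 4 of these measures were lower at 48 h without overlap in both experiments, and the part of these markers, UMIs and phases in the result was not tested.

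The test of the difference itself, the treatment effect at 48 h minus that at 72 h, was higher for 74 of 82 genes and lower for 1 (all genes: 18.5% and 13.0%), with a median of 0.23 against 0.02 over all genes. It was 0.70 ± 0.101 for *Rps2* (edgeR adjusted p = 3.87e-06), 0.52 ± 0.075 for *Rpl14* (edgeR adjusted p = 4.02e-06) and 0.47 ± 0.06 for *Rpl36a* (edgeR adjusted p = 8.74e-07). The gene with a lower effect at 48 h was *Rps27rt* (-0.17, edgeR adjusted p = 0.0392). The 7 genes that did not pass included *Rps27* (-0.08), *Rpl21* (0.08) and *Rpl13a* (0.09). In the larger experiment alone 43 passed higher and 2 lower (all genes: 10.3% and 11.3%), and in the smaller 62 and 0 (4.16% and 3.27%).

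Without treatment, few of these genes passed the test between day 7 and day 10, and the experiments differed. At 72 h against 0 h in untreated mice 1 of 82 genes was higher and 0 were lower (all genes: 1.79% and 2.62%), by edgeR's quasi-likelihood test, with 13 of 82 (15.9%) at an unadjusted p under 0.05 against 18.1% of all genes, and with 5 higher by DESeq2 (all genes: 2.41%). Without TMM factors 9 were higher (all genes: 1.98%). The median log2 fold change was 0.03, against -0.01 over all genes. It lay 0.0032 above that of all genes in the larger experiment alone and 0.13 above it in the smaller alone, where only 3 of 10334 genes of any kind passed and where the share of ribosomal protein UMIs and their number per cell (ratio 1.17) were higher at 72 h without overlap. The gene that passed was *Rps29*, a small zinc-binding 40S protein, which rose by 0.09 ± 0.027 (edgeR adjusted p = 0.034). It was at 948 to 1026 CPM at 0 h and 1017 to 1086 at 72 h in the larger experiment, with overlap, and at 1445 to 1538 and 1639 to 1677 in the smaller, without overlap. *Rps2* had 0.11 ± 0.066 and did not pass (edgeR adjusted p = 0.388), and its 6 mice at 0 h in the larger experiment spread from 2192 to 3536 CPM, more widely than those of any other group.

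C and N cells were compared within the 7 mice that gave both, so that each mouse was its own control. All kept cells entered, without a split by GC zone. The study made its own comparison among cells with the expression profile of the dark zone, where GC B cells divide. In its untreated GCs the reporter was mostly nuclear in cells of the light zone, where GC B cells compete for selection. The zone of the cells and its part in the result were not tested. Of 82 ribosomal protein genes tested 77 were higher in C and 1 was lower. In this comparison 36.5% of all 10142 genes were higher and 38.6% lower. The median log2 fold change was 0.26, against -0.02 over all genes, and the range was -0.12 to 0.70. Rises passed in 46 of 49 genes of the 60S and 31 of 33 of the 40S subunit. The scaling mattered more here than in the time course, because TMM factors were 0.912 to 0.947 in C and 1.05 to 1.10 in N. With library sizes alone, where the median of all genes was at -0.22, 49 were higher and 19 lower (all genes: 23.9% and 57.6%), and the ribosomal protein genes lay 0.29 above all genes in median under both scalings.

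Among the largest differences between C and N were those of *Rps27l*, *Rpl14* and *Rps2*. *Rps27l* was at 297 to 345 CPM (median 312) in C and 187 to 258 (median 230) in N, a log2 fold change of 0.70 ± 0.031 (edgeR adjusted p = 1.12e-16). *Rpl14* was at 1839 to 2121 (median 2037) against 1327 to 1519 CPM (median 1471), with 0.64 ± 0.019 (edgeR adjusted p = 4.93e-20). *Rps2* was at 2632 to 3090 (median 3007) against 1937 to 2322 CPM (median 2219), with 0.60 ± 0.02 (edgeR adjusted p = 6.55e-19). These 3 genes were named for their high fold changes among the calls, so a lack of overlap is not separate evidence. Their ranges did not overlap, so that they were higher in C on the CPM scale as well as in the fit. The same held for the stalk protein *Rplp1*, at 4191 to 4728 against 3294 to 3583 CPM (0.56 ± 0.016), and for *Rpl41*, at 4478 to 4834 against 3918 to 4143 CPM (0.41 ± 0.017).

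Small fitted rises between C and N rested on the scaling. *Rps27* had a fitted log2 fold change of 0.18, while its CPM ranges overlapped, at 1755 to 1881 in C and 1758 to 1889 in N. *Rplp0* had 0.23, with 3769 to 4090 CPM in C and 3524 to 4098 in N. *Rps7* and *Rpl35a* had 0.05 and 0.06, and both turned negative with library sizes alone, at -0.15 and -0.13. The only gene that was lower in C was *Rpl13a*, a 60S protein also known as a translation regulator in myeloid cells, with 312 to 333 CPM in C against 388 to 415 in N and a log2 fold change of -0.12 ± 0.024 (edgeR adjusted p = 5.3e-05). Its mean in the time course was 294 CPM, rank 78 by abundance among the ribosomal protein genes. Whether all of its UMIs were counted was not tested. The other genes that did not pass were *Rpl7* (-0.01), *Rpl7l1* (-0.02), *Rps27rt* (0.00) and *Rps10*. *Rps10*, with a mean of 198 CPM in the time course (rank 80), was named after its values were seen. Naive or memory B cell markers summed to 116 to 199 CPM in C and 365 to 603 in N, and 6 of 7 were lower in C. The share of cells assigned to G1 was 12.2% to 19.1% in C and 53.4% to 64.1% in N. GC B cell markers (3 higher and 5 lower of 8) summed to 2245 to 2410 CPM in C and 2479 to 2695 in N, without overlap. The 1 T cell marker tested was lower in C, while the sums overlapped, at 44.4 to 66.3 and 60.7 to 147 CPM. Of 3 plasma cell markers 1 was higher and 2 lower, and of 2 myeloid markers 1 was higher and 1 lower. The part of these markers in the result was not tested.

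**Figure D4:**
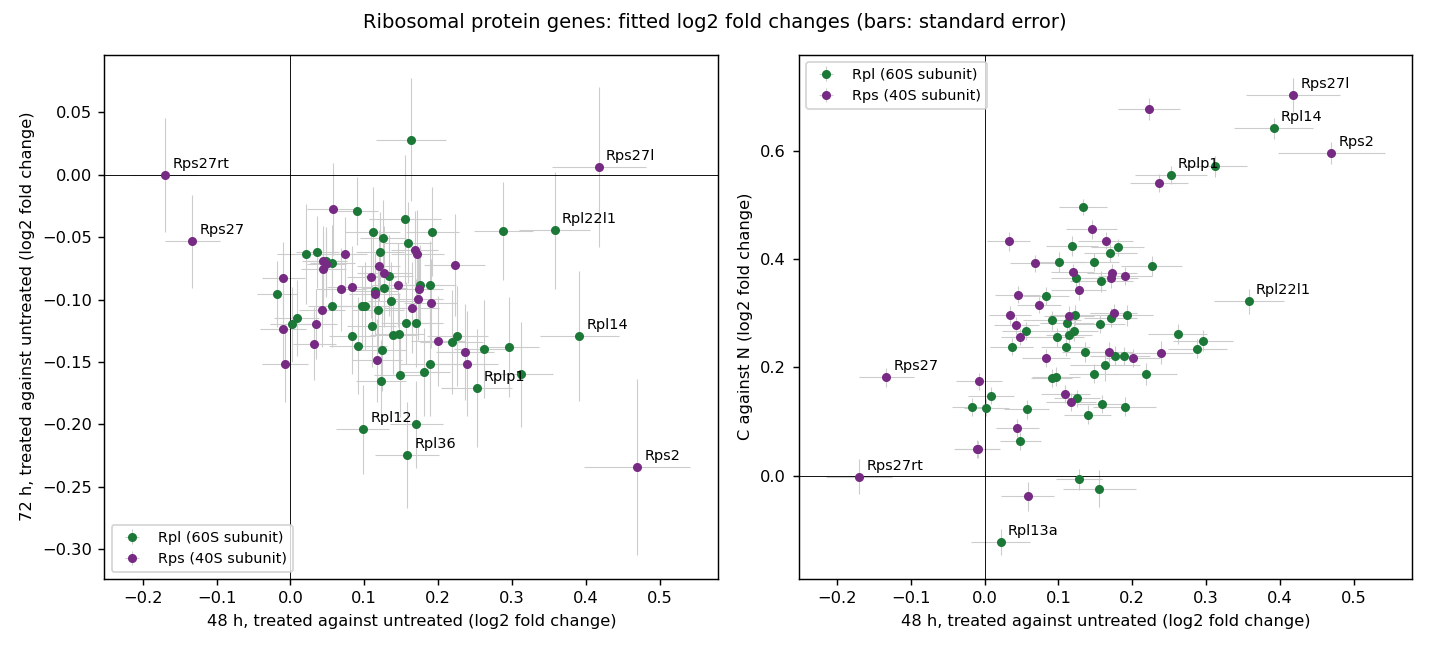
Fitted log2 fold changes of the 82 tested ribosomal protein genes. The x axis is the comparison of treated with untreated mice at 48 h in both panels, and the y axis is that at 72 h (left) or C against N (right). Points are genes, coloured by subunit, and bars are standard errors. Most genes lie right of 0 and below 0 in the left panel, where 80 of 82 values at 72 h are negative, and above 0 in the right panel, where 77 of 82 are positive.

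The time course and the reporter sort used different mice. Across the 82 genes, the fold change at 48 h and that of C against N had a Pearson r of 0.59 and a Spearman rho of 0.47. This describes genes, which are not independent replicates, and the fold changes share the same kind of libraries. The r over all genes tested is not given, so it is not shown to be particular to ribosomal protein genes. The share of cells in G1 was lower both with treatment at 48 h and in C, and its part in r was not tested. *Rps2*, *Rpl14* and *Rps27l* were among the 4 largest rises in both comparisons. The average abundance of a gene and its fold change had a Pearson r of -0.04 at 48 h, -0.40 at 72 h, 0.36 in untreated mice at 72 h against 0 h, and 0.21 in C against N, with a Spearman rho of -0.12, -0.12, 0.12 and 0.09 in that order.

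Cells were assigned to G1, S or G2/M from other genes, and the share of ribosomal protein UMIs was then taken per mouse within each phase. G1 is here the class of cells without the S or G2/M programs, which the study calls G0-G1. The class does not separate G0 from G1, so its make-up can differ between groups, such as C and N. At 72 h the treated mice of the larger experiment were lower in each phase, by 1.26 percentage points in G1, 1.80 in S and 1.40 in G2/M, with no overlap. In the smaller experiment they were lower by 0.739 in G1, with overlap, and by 0.989 in S and 1.69 in G2/M, without overlap. At 48 h the rise of the smaller experiment was present in G1 (1.86), S (1.52) and G2/M (1.23 percentage points), while in the larger it was 0.129 and 0.259 with overlap in G1 and S, and 1.24 without overlap in G2/M. With cells of a single phase the gene test at 48 h gave 11 rises and 2 falls in G1 (all genes: 4.52% and 4.29%), 27 and 0 in S (6.09% and 5.31%), and 49 and 0 in G2/M (9.75% and 8.44%). The median of the ribosomal protein genes lay 0.06, 0.08 and 0.13 above that of all genes in these fits. The 0 h, 48 h and 72 h mice of the larger experiment had a lower share in G2/M than in G1 in 25 of 25 cases, and those of the smaller in 7 of 14. G2/M was below S in 25 of 25 and 14 of 14.

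In the reporter sort, the difference between C and N depended on the assigned phase. C was above N by 3.39 percentage points in G1 (SD 0.437) and by 2.22 in S (SD 0.489), in 7 of 7 mice each, with means in G1 of 22.8% and 19.4% and in S of 21.5% and 19.3%. In G2/M the means were 19.3% in C and 19.7% in N, and C was above N in 1 of 7 mice. The difference was -0.39 percentage points with an SD of 0.919, and it was -0.691 without mouse 6, the only one with C above N, and -0.198 without mouse 4. N held few cells in G2/M, 455 in all and as few as 25 in a mouse. Within C the share was lower in G2/M than in G1 in 7 of 7 mice, and within N in 2 of 7. The gene test gave 77 rises and 1 fall in G1 cells (all genes: 31.0% and 31.7%), 77 and 0 in S cells (30.5% and 32.6%), and 46 and 5 in G2/M cells (25.9% and 25.0%). In G2/M cells the mean share was thus lower in C while more genes rose than fell. The gene test was scaled by TMM factors and the share was not, and no fit of G2/M cells used library sizes alone. *Rps27l*, the gene with the largest difference over all cells, was at -0.06 between C and N in G2/M cells.

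**Figure D5:**
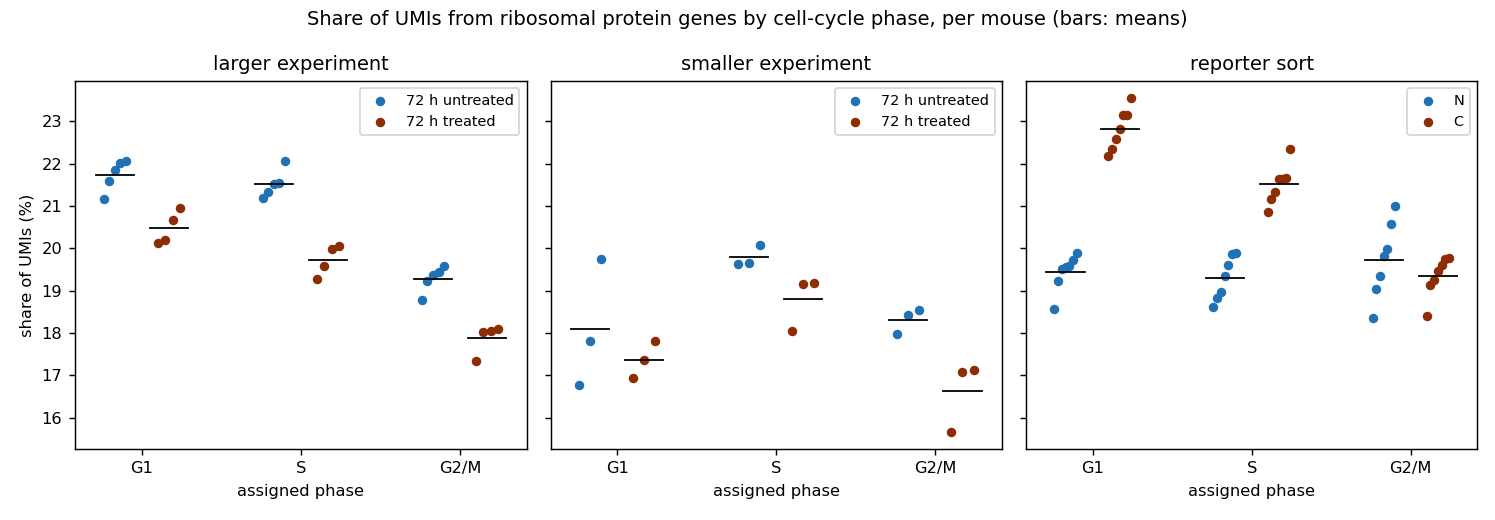
Share of UMIs from ribosomal protein genes (y axis, percent; the axis does not start at 0) by assigned cell-cycle phase, for untreated and treated mice at 72 h in both experiments and for N and C of the reporter sort. Points are mice and bars are means. Treated mice lie below untreated ones without overlap except in G1 of the smaller experiment, and the distance between C and N is 3.39 percentage points in G1 and -0.39 in G2/M.

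The counts of related gene lists stand beside the shares of all genes given above: 26.3% higher and 21.1% lower at 48 h, 4.67% and 3.88% at 72 h, 26.8% and 22.3% in treated mice at 48 h against 72 h, and 36.5% and 38.6% in C against N. Outside the symbol rule, *Rack1*, a scaffold on the 40S head, rose by 0.18 at 48 h, while *Fau*, the precursor of Rps30, had -0.19 and passed as a fall. Of 25 genes of ribosome biogenesis 17 rose and 0 fell at 48 h (median 0.25), 1 rose and 0 fell at 72 h (median -0.11), 20 were higher in treated mice at 48 h than at 72 h, and 15 were higher and 5 lower in C than in N. Of 78 genes of mitochondrial ribosomal proteins, which serve the ribosome inside mitochondria, 70 rose and 0 fell at 48 h with a median of 0.27, and 66 were higher and 2 lower in C with a median of 0.37. At 72 h 5 of the 78 rose and 0 fell, with a median of 0.03, and the difference from the cytosolic genes was not tested. Of 15 other mRNAs known to carry a TOP tract, such as those of elongation factors, 11 rose and 1 fell at 48 h, and 0 rose and 0 fell at 72 h with a median of -0.05. Genes that act on TOP mRNAs or on mTORC1 signalling (13 tested) gave 6 rises and 0 falls at 48 h, 1 and 0 at 72 h, and 4 and 2 in C against N, the latter pairs being near or below the shares of all genes.

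An earlier experiment with anti-DEC-OVA held 3 mice per group, and its treated cells were sorted for low mCherry, a sort that the other groups did not have. Its mice lie outside the rule and are given as a separate set. The share of ribosomal protein UMIs was 22.3% to 23.0% on day 7, 22.2% to 23.0% in untreated and 22.0% to 22.1% in treated mice on day 10, so that treated mice were lowest without overlap. In the gene test 0 of 82 genes were higher and 0 lower with treatment on day 10 (all 9076 genes tested: 0.672% and 1.07%) by edgeR's quasi-likelihood test, with 8 (9.76%) at an unadjusted p under 0.05 against 11.8% of all genes, and a median log2 fold change of -0.02. *Rps2* had 0.04 ± 0.056 there (edgeR adjusted p = 0.861) and *Rpl12* -0.13 ± 0.052 (edgeR adjusted p = 0.27). The B1-8hi pairing was found in only 0.84% to 3.63% of the kept cells of treated mice, against 7.44% to 13.95% in untreated mice of day 10. Plasma cell markers summed to 1150 to 1666 CPM in treated and 963 to 1033 in untreated mice of day 10, and T cell markers to 48.2 to 61.3 and 85.9 to 114 CPM. On day 10 untreated mice held 360890 to 2306331 UMIs in 215 to 1154 cells, and treated mice 4045131 to 4914948 in 1729 to 2027 cells. UMIs per cell were 1679 to 2043 and 2157 to 2425 in that order. A mouse of the time course held at least 1984426 UMIs. The untreated and treated groups of day 10 did not overlap in any of these measures, and their part in the result was not tested.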

How the data were processed

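For each pool, the authors deposited UMI counts per gene and cell and per hashtag antibody and cell, not normalized, and immunoglobulin contigs. The file headers name CellRanger 8.0.1 for the time course and the reporter sort and 7.1.0 for the earlier experiment. The submitters' processing notes list Cell Ranger 6.0.1 and Seurat 5.1.0, and the reference was mm39. The members, the gene lists and the alternatives were chosen with earlier results of these data known.

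Hashtag cutoffs followed HTODemux in Seurat 5.3.0 (positive quantile 0.99). A cell needed exactly the hashtags of 1 listed mouse, at least 200 genes and under 10% mitochondrial UMIs. Cells positive for more than 1 mouse (1936, 2705, 838 and 390 in the larger and smaller experiments, C and N) were left out, and doublets within a mouse were not searched for. The mitochondrial filter removed 350 cells of the larger and 3114 of the smaller experiment. Of 9 mice listed for C and N, 2 had no cells. The B1-8hi pairing was exactly 1 productive *Ighv1-72*/*Ighj2* and 1 productive *Iglv1*/*Iglj1* contig. The sum of counts over the cells of a mouse was its library. Libraries were fitted by edgeR 4.0.16 under R 4.3.3, after filterByExpr and with TMM factors, by the quasi-likelihood method (adjusted p under 0.05 after Benjamini and Hochberg), with all 5 groups of the time course in a single fit and C and N paired by mouse. C and N of a mouse come from the same animal, and their deviations from the population means correlated in 7 of 7 pairs (r of 0.132 to 0.467 over 10142 genes). No r between different mice is given beside these, so they do not show that the pairing by name was right. The test of treated against untreated mice at 48 h was run on counts simulated from the fitted time course, and its outcome is not given here. No such check was made of the paired fit of C and N. Named genes were those with the 4 highest and 4 lowest fold changes per comparison among calls with an average log2 CPM above 4, 12 members of known sites, and paralog pairs; some genes that this rule names are not reported here. Shares carry no test. Sequences came from GRCm39 and GENCODE vM39. The alternatives were no TMM, TMM without ribosomal protein genes, DESeq2 1.42.0, other filters, only B1-8hi cells, each experiment alone, no pairing, and mice left out in turn.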

Additional observations from a re-analysis of the deposited data

Results flagged for a closer look

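In the time course, the effect of treatment on ribosomal protein genes differed between 48 h and 72 h by a test of the difference itself, with 74 of 82 genes higher and 1 lower at 48 h. This is the comparison in which 18.5% and 13.0% of all genes passed.

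Single mice stood apart from the rest of their group in 6 of 70 groups of mice and genes examined, where chance alone gives about 1 in 20. The lowest N mouse had 1936.78 CPM of *Rps2*. The lowest N mouse had 1327.46 CPM of *Rpl14*. The lowest C mouse had 606.151 CPM of *Rpl22l1*. The highest treated mouse at 72 h in the larger experiment had 630.989 CPM of *Rpl22l1*. The highest treated mouse at 48 h in the larger experiment had 5101.13 CPM of *Rplp1*. The highest 0 h mouse of the larger experiment had 359.298 CPM of *Rps27rt*. The cause was not tested for any of them.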

How the results depend on the processing

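The counts of genes higher and lower are given in that order, and percentages in brackets are the shares of all genes. At 48 h, where 60 rose and 2 fell, library sizes alone without TMM gave 35 and 8 (18.5% and 30.1%), only B1-8hi cells 30 and 6 (16.8% and 17.7%), and no term for the experiment 16 and 0 (15.5% and 10.8%). The larger experiment alone gave 24 and 6 (18.2% and 19.7%), the smaller alone 56 and 0 (10.7% and 10.1%), G1 cells 11 and 2 (4.52% and 4.29%), S cells 27 and 0 (6.09% and 5.31%), and G2/M cells 49 and 0 (9.75% and 8.44%). At 72 h, where 0 rose and 39 fell, 2 fell with no term for the experiment (1.07%), 22 in the larger (3.55%) and 0 in the smaller experiment alone (0.116%), and 1 rose and 19 fell in G1 cells (3.69% and 4.80%). For treated mice at 48 h against 72 h (80 higher, 1 lower), 2 were lower without TMM (34.4%), with only B1-8hi cells (20.8%), in the larger experiment alone (21.3%) and with only both groups compared in the fit (26.6%), and 0 with no term for the experiment and in the smaller alone (12.3% in each). For untreated mice (1 higher), 9 were higher without TMM (1.98%), 4 with TMM factors computed without ribosomal protein genes (2.05%), 0 without the filter on low counts (1.26%), 3 with only B1-8hi cells (1.85%), 3 with cells assigned to their highest hashtags (1.92%), and 5 with DESeq2 (2.41%). With no term for the experiment (0.46%), in the larger experiment alone (2.17%) and with only both groups in the fit (1.29%), 0 were higher. For C against N (77 and 1), library sizes alone gave 49 and 19 (23.9% and 57.6%), S cells 77 and 0 (30.5% and 32.6%), and G2/M cells 46 and 5 (25.9% and 25.0%). Without the replicate block, that is without pairing by mouse, 75 were higher and 1 lower (34.3% and 35.6%), and leaving out each mouse in turn gave 76 to 77 higher and 1 lower (35.2% to 35.9% and 36.4% to 38.1%). For the difference of the effects between 48 h and 72 h (74 and 1), 2 were lower without TMM (20.4%), 43 were higher and 2 lower in the larger experiment alone (10.3% and 11.3%), and 0 were lower in the smaller alone (3.27%). The share difference at 48 h was 1.68 percentage points and that of untreated mice 1.37 in the smaller experiment alone, and that of C against N was 0.682 as the mean over cells. The mean over cells gave 1.18 at 48 h. As each mouse was left out, C against N in G2/M cells ran from -0.691 to -0.198. The fits within a phase, the mice left out within a phase, those of the difference between effects and those of the earlier experiment were chosen after seeing the data. Beyond the construction of each setting (fewer mice, fewer cells, another scaling), the cause of these changes was not tested. No label pairs mice of different groups of the time course.

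Of 1311 alternative values for 92 results of named genes that passed the test, 1100 kept their direction and their call, 187 lost the call and 24 turned in sign. At 48 h, *Rps16* was at -0.00179 without TMM, -0.000245 in B1-8hi cells, -0.015 in the larger experiment alone and -0.00131 in G1 cells, and *Rps9* at -0.017 in the larger experiment alone. Without TMM, the C against N values were -0.0701 for *Rpl10*, -0.13 for *Rpl35a*, -0.064 for *Rpl5*, -0.016 for *Rps27*, -0.047 for *Rps3* and -0.15 for *Rps7*. In G2/M cells they were -0.098 for *Rpl10*, -0.0198 for *Rpl22l1*, -0.000625 for *Rpl3*, -0.00104 for *Rpl35a*, -0.18 for *Rpl36al*, -0.017 for *Rpl5*, -0.00883 for *Rplp0*, -0.058 for *Rps27l*, -0.025 for *Rps3* and -0.028 for *Rps7*. For treated mice at 48 h against 72 h, *Rpl21* was at -0.015 without TMM and *Rps27rt* at 0.038 with no term for the experiment. In the earlier experiment, the median was -0.02 and ran from -0.034 to 0.0039 as each mouse was left out, the last value without untreated mouse 1. Depth limits the 4 members with at most 90 UMIs, which were not tested.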
